A study of Mus musculus with 20 samples.

Results

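The genes described are 10 mouse CC chemokine genes: Ccl2, Ccl7, Ccl12, Ccl3, Ccl4, Ccl5, Ccl9, Ccl17, Ccl20 and Ccl22. A peak was assigned to a gene when its centre lay within 10 kb of the gene's span on mm10, and the peaks were followed through 12 lists of p65 and SOCS1 binding. Of 258959 peaks in the 12 lists, 134 lay at these genes. They merged into 47 sites, out of 96700 regions in all, where peaks of any lists overlapped by at least 1 bp. At least 1 site was found at 9 of the 10 genes, and Ccl20 had none.

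The chromatin came from bone-marrow-derived macrophages (BMDM), cells grown from mouse marrow in medium with the growth factor M-CSF, and was profiled by CUT&RUN after brief formaldehyde fixation. In CUT&RUN an antibody directs a nuclease to its target in permeabilized cells, and the released DNA is sequenced. The antibodies were against p65 (RELA, the activating subunit of the transcription factor NF-κB), SOCS1 (an inhibitor of cytokine signalling that is itself induced by cytokines) and, as the control, IgG. The cells were wild type (WT, written C65BL6 in the design text) or a knockout (KO). The control cells had no treatment, and the other groups had 30 min or 8 h of lipopolysaccharide (LPS) at 100 ng/mL. LPS is a bacterial cell wall product that macrophages sense through TLR4.

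The design text calls the knockout NOS1 KO, while the series title is about SOCS1, and the sample labels say only KO. In cells without SOCS1, peaks of the SOCS1 antibody would be background of that antibody. Which gene was disrupted was not tested. The age of the mice and the number of animals behind each library are not given in the sources used here. Each of the 12 lists comes from 1 library. Differences between groups therefore have no replicate check and were not tested, and the 95% intervals hold counting error only.

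CC chemokines are small secreted proteins that draw leukocytes along a gradient through G-protein-coupled receptors. Ccl2, Ccl7 and Ccl12 act on CCR2 and bring monocytes into inflamed tissue. Ccl3, Ccl4, Ccl5 and Ccl9 attract monocytes and other leukocytes, with Ccl3, Ccl5 and Ccl9 acting on CCR1. Ccl17 and Ccl22 act on CCR4 of T cells, and Ccl20 acts on CCR6. Macrophages make many of these proteins after LPS, and NF-κB is a known activator of several of their genes.

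Promoter sequences show how the binding lay relative to the start of the genes. The RefSeq promoter table of GRCm38.p6 (the patch release of mm10) held 6 of the 10 genes, and Ccl2, Ccl7, Ccl4 and Ccl5 were not matched. The 250 bases before the start of 4 genes are printed from upstream to the start. Ccl12 and Ccl3 are shown because peaks of 9 and 6 lists overlapped these bases, by 2 to 70 and 5 to 131 bases, and Ccl9 and Ccl20 because they held a match to the NF-κB consensus, which is in capitals.
Ccl12, chr11:82101595-82101844, plus strand: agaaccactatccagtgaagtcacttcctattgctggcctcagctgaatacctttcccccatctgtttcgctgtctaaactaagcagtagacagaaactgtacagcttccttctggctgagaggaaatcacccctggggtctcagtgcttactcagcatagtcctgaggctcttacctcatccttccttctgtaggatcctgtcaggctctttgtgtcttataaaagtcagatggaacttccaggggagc
Ccl3, chr11:83649379-83649628, minus strand: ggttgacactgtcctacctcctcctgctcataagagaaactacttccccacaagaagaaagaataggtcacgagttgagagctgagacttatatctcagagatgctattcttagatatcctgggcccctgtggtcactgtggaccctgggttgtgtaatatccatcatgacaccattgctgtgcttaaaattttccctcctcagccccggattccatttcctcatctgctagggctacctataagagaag
Ccl9, chr11:83578637-83578886, minus strand: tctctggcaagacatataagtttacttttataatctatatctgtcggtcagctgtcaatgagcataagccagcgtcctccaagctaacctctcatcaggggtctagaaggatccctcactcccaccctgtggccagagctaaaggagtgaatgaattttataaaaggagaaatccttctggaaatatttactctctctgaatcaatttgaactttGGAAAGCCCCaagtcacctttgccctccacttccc
Ccl20, chr1:83116516-83116765, plus strand: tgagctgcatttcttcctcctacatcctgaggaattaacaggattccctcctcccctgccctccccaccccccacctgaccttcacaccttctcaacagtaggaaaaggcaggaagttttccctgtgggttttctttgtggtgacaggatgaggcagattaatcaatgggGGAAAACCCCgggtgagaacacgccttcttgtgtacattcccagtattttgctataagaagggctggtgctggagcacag

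The motifs were searched on both strands of the 250 bases: the NF-κB consensus, the STAT motif GAS (TTCNNNGAA) and the AP-1 motif (TGANTCA). The NF-κB consensus matched at Ccl9 (GGAAAGCCCC, beginning 35 bases before the start) and at Ccl20 (GGAAAACCCC, 80 bases before the start). No match was found at Ccl12, Ccl3, Ccl17 or Ccl22. Most of each peak at Ccl12 and Ccl3 lay outside the 250 bases, so the search does not cover the sequence under those peaks. At the matched promoters, Ccl20 had no peak, and the peak at Ccl9, that of p65 in WT control cells, spanned all 250 bases. GAS matched at Ccl17 (TTCTTTGAA, 99 bases before the start), a promoter that no peak overlapped. The Ccl17 promoter (chr8:94810203-94810452) lies inside the gene span from which the sites were measured (chr8:94809380-94812038). AP-1 matched at Ccl9 (TGAATCA, 53 bases before the start, clear of the NF-κB match). Among 32851 promoters of the same length, 7.25% held the NF-κB match, 7.02% GAS and 6.75% AP-1.

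The levels below are the authors' normalized tag counts: tags in the peak, scaled to 10 M tags in the library (10 M is 10000000). The libraries held 6.93 to 18.4 M tags and gave 9438 to 43124 peaks each, and the lowest level called in a list was 6.51 to 10.3. A site that was not called in a list has no value there and is not shown to be unbound. Peak width was set separately for each list, from 222 bp (p65, KO, 30 min) to 493 bp (p65, KO, 8 h), and a wider peak takes in more tags. Of 10 macrophage marker genes such as Csf1r and Cd14, 8 to 10 had a peak in each list. Markers of other cells also had peaks: 2 to 8 of 10 for neutrophils, 4 to 9 of 10 for dendritic cells and 2 to 6 of 9 for lymphocytes. By the same rule, 32.4% to 65.4% of all protein-coding genes had a peak, depending on the list. A peak at a marker gene is not its expression, and the part of other cells in the results was not tested.

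After LPS, p65 had a peak at all of the genes but Ccl20 in WT cells. In the p65 lists of WT cells, 7 of 10 chemokine genes had a peak in the control, where 32.7% of all 21887 protein-coding genes had one by the same rule. At both 30 min and 8 h the count was 9 of 10, against 61.9% and 55.9% of all genes. Besides Ccl20, the genes without a control peak were Ccl17 and Ccl22, which had one at both LPS times.

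In KO cells p65 had a peak at 6 of 10 genes in control cells (35.8% of all genes), 9 at 30 min (65.4%) and 7 at 8 h (55.5%). Ccl12 was the gene with a control peak in WT and not in KO cells. Ccl5 and Ccl9 had a p65 peak at 8 h in WT and not in KO cells, which is 2 of the 9 genes called at WT 8 h. Over all genes called at WT 8 h, 11.7% had none in KO cells. With a window of 20 kb both Ccl5 and Ccl9 had p65 peaks at KO 8 h, the highest at 225.5 and 80.0, and the count was 9 of 10 genes. The share of all genes with a window of 20 kb was not counted.

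SOCS1 had a peak at 6 of 10 genes in WT control cells (32.4% of all genes), 8 at 30 min (47.7%) and 8 at 8 h (38.6%). In KO cells 6 genes had one in the control (55.3%), 7 at 30 min (51.0%) and 7 at 8 h (44.6%). The KO control count is close to the share of all genes in that list. Genes that are neighbours share peaks: every site of Ccl3 also lay in the window of Ccl4, whose RefSeq span of 16060 bp overlaps Ccl3, and Ccl2 shares 4 sites with Ccl7, so the 10 genes are not 10 independent observations. Counting only peaks at least 8-fold over their local background left 3 genes for p65 in WT control cells, 3 for p65 at KO 8 h and 1 for SOCS1 in KO control cells. The share of all genes at that limit was not counted, so the shares above do not serve as its background.

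**Figure D1:**
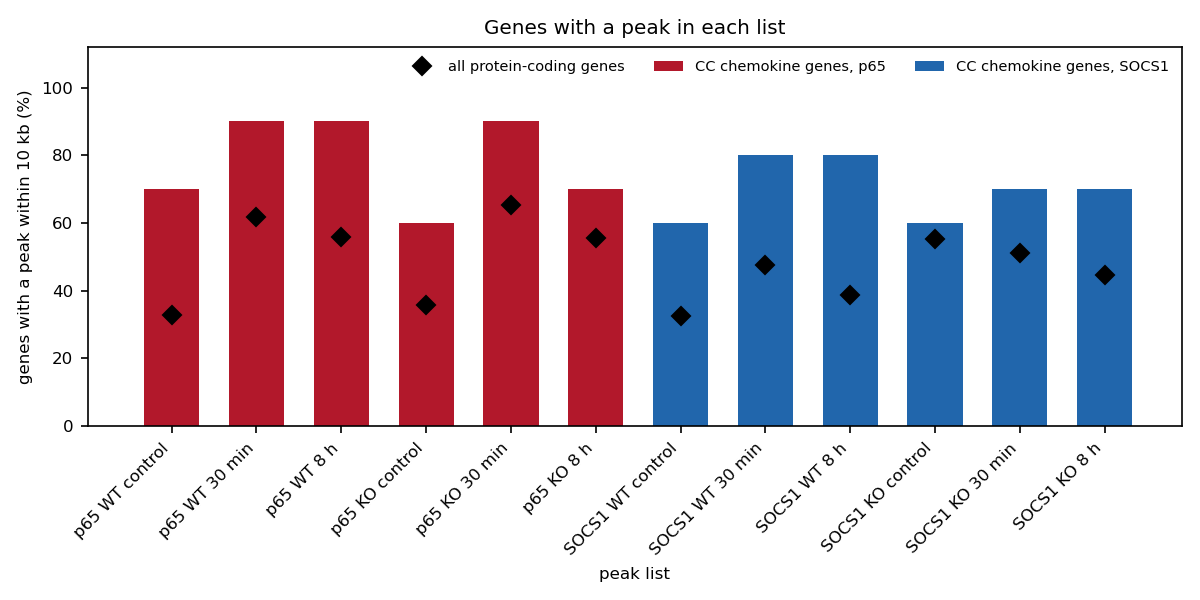
Share of genes with a peak within 10 kb, in percent, in each of the 12 lists (1 library each). Bars are the 10 CC chemokine genes (red p65, blue SOCS1) and diamonds all 21887 protein-coding genes; the bars reach 90% in 3 p65 lists, and in SOCS1 KO control cells the bar of 60% lies near the diamond at 55.3%.

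Ccl20 had no peak in any list, a pattern it shared with 24.5% of all genes. Its nearest peak lay 20.8 kb from the gene, in the SOCS1 list of KO control cells. In the other 11 lists the nearest peak was 56.6 to 318 kb away.

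The sites differed in how many lists called them. Of the 47 sites, 19 were called for p65 alone (40.4%, against 40.6% of all regions), 9 for SOCS1 alone (19.1%, against 25.5%) and 19 for both (40.4%, against 33.9%). A single list called 23 sites (48.9%, against 51.9% of all regions), and 6 sites (12.8%) were in at least 8 lists, against 7.01% of all regions. Those 6 sites were 1 each near Ccl7, Ccl12, Ccl5 and Ccl17 and 2 at Ccl3. LPS lists alone called 25 sites (53.2%, against 58.6% of all regions), control lists alone 11 (23.4%, against 18.5%) and both kinds 11 (23.4%, against 22.9%).

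The median p65 level at the sites of these genes in LPS-treated cells was well above the median of all peaks. In WT cells the median p65 level was 27.3 in the control, 82.9 at 30 min and 68.5 at 8 h, and the medians of all peaks in those lists were 18.9, 23.6 and 20.8. In KO cells the site medians were 25.9, 110 and 75.0, against 21.1, 21.4 and 30.5 for all peaks. The SOCS1 medians were 37.1, 50.8 and 48.4 in WT cells (all peaks 24.5, 19.5 and 18.4) and 45.9, 62.6 and 83.6 in KO cells (29.2, 29.7 and 24.4). The sites of Ccl17 and Ccl22 were lower than the p65 medians of the sites in WT cells. Their p65 levels were 7.51 to 20.3 at WT 30 min and 11.3 to 37.8 at WT 8 h, where all peaks had medians of 23.6 and 20.8. The map of all sites gives the level of each site in each list.

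**Figure D2:**
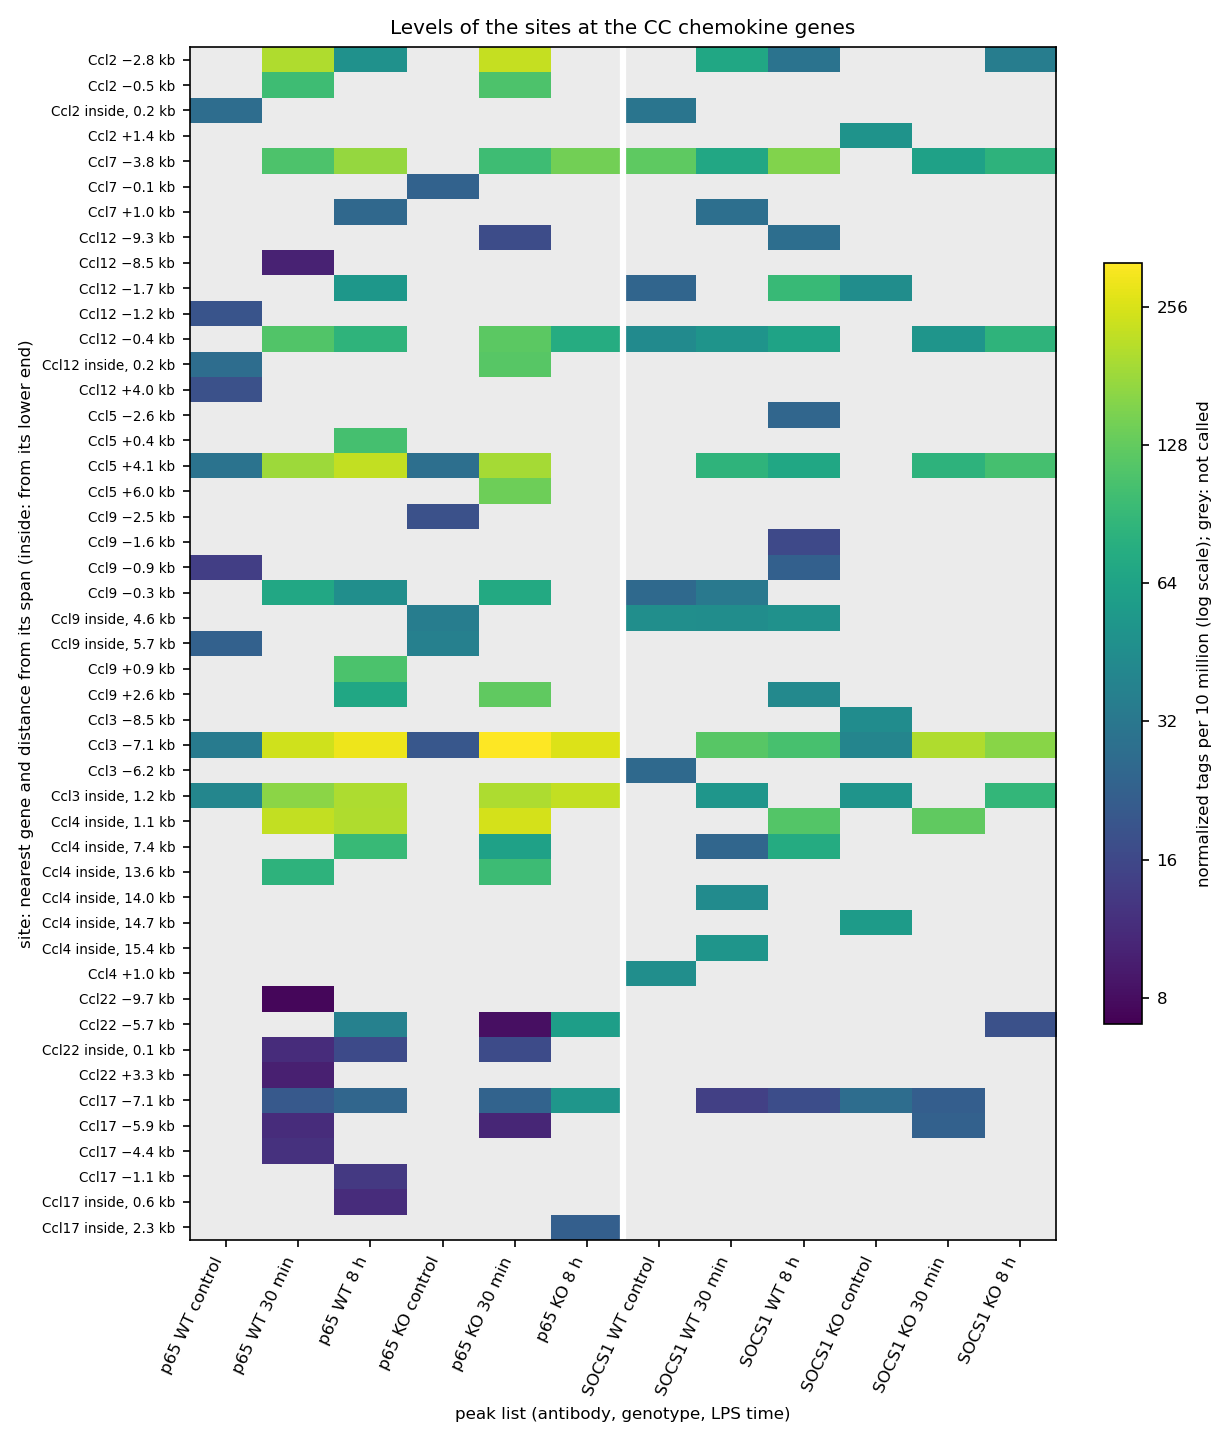
Normalized tags per 10 M (colour, log scale) at each of the 47 sites (rows, named by nearest gene and distance of the site centre from its span) in the 12 lists (columns, 1 library each); grey means not called. Rows called in every LPS column are those at Ccl7 −3.8 kb, Ccl12 −0.4 kb and Ccl3 −7.1 kb, and the row at Ccl5 +4.1 kb lacks only p65 at KO 8 h. The highest levels in the Ccl17 and Ccl22 rows are 52.3 and 60.0, both for p65 at KO 8 h.

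Ccl2, the main monocyte attractant of the CCR2 group, shares its highest SOCS1 site and its highest p65 site at 8 h with Ccl7, described under that gene. At 30 min its highest p65 level was at a site centred 2757 bp below the gene (chr11:82032514-82033126; below means toward lower coordinates). Its p65 level was 201.9 at 30 min and 48.2 at 8 h in WT cells and 228.1 at 30 min in KO cells, and it was not called in either control list or at KO 8 h. Its SOCS1 level was 68.2 at 30 min and 30 at 8 h in WT cells and 35.4 at 8 h in KO cells. That KO peak lay mostly beside the WT ones: it overlapped the WT 8 h peak by 27 bp and did not overlap the WT 30 min peak. In WT cells the 8 h level was 0.239 times the 30 min level for p65 (95% counting interval 0.173 to 0.323) and 0.440 times for SOCS1 (0.280 to 0.707). Both antibodies thus had their higher WT level at the early time.

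Closer to Ccl2, 510 bp below its span, p65 was called at 30 min alone, at 97.6 in WT and 110.1 in KO cells. Inside Ccl2, 204 bp from its lower end, both antibodies had a peak in WT control cells only, at 27.3 for p65 and 31.0 for SOCS1. In KO control cells the SOCS1 antibody had a peak of 49.7 at 1416 bp above Ccl2, which no other list called.

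Ccl7, which lies next to Ccl2 and also attracts monocytes, had its leading site 3832 bp below its span, between both genes (chr11:82041579-82042182). The p65 level there was 110.3 at 30 min and 173.8 at 8 h in WT cells and 97.6 and 142.3 in KO cells, with no call in control cells. The SOCS1 level was 69.3 at 30 min and 154.6 at 8 h in WT cells, with 124.1 in their control, and 62.6 and 83.0 at those LPS times in KO cells. The order over time was the reverse of that at Ccl2: for p65 the 8 h level was 1.58 times the 30 min level in WT (1.26 to 1.97) and 1.46 times in KO cells (1.17 to 1.82), and for SOCS1 in WT cells 2.23 times (1.65 to 3.00). Per bp of peak width the KO value for p65 was 0.659, since the KO 8 h peak was 493 bp wide and the 30 min peak 223 bp.

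In WT cells the SOCS1 site near Ccl7 ranked 45 of 9438 peaks in control cells and 13 of 13720 at 8 h by normalized tags. It was the strongest chemokine site of both lists. In WT control cells IgG also had 19.7 tags in this peak, scaled by the authors to the antibody library, and the peak was 4.37-fold over IgG, just above the required 4-fold. At 8 h it was 16.8-fold over IgG.

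Ccl12, the third CCR2 ligand, had its leading site 448 bp below its span (chr11:82101130-82101664), which is upstream of its start on the plus strand and overlaps the promoter printed above. The p65 level was 114.1 at 30 min and 83.6 at 8 h in WT cells and 122.9 and 75.0 in KO cells, with no call in control cells. The SOCS1 level was 43.3, 50.8 and 64.7 (control, 30 min, 8 h) for WT and 51.1 and 83.6 at the LPS times in KO cells. The p65 levels were higher at 30 min than at 8 h and the SOCS1 levels the other way round, in both genotypes. For p65 the ratio of 8 h to 30 min was 0.733 (0.561 to 0.963) in WT and 0.610 (0.464 to 0.783) in KO cells, and for SOCS1 it was 1.27 (0.861 to 1.88) and 1.64 (1.10 to 2.41). The p65 ratio in WT cells became 1.04 once divided by the median ratio of all regions, 0.702.

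A second Ccl12 site, 1692 bp below its span, was called in 3 SOCS1 lists and 1 p65 list. SOCS1 was at 24.5 in WT control cells, 91.5 at WT 8 h and 45.9 in KO control cells, and p65 was called at WT 8 h alone, at 52.9. The SOCS1 level at WT 8 h was 3.73 times that in control cells (2.20 to 6.69). Inside Ccl12, 152 bp from its start, p65 was at 27.3 in WT control cells and at 118.8 at KO 30 min.

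Ccl3 and Ccl4, macrophage inflammatory proteins of which Ccl3 binds CCR1, lie side by side and carried the highest p65 levels of the 10 genes. The leading site was centred 7056 bp below Ccl3 (chr11:83640441-83641134), which is downstream of Ccl3 on its minus strand. The p65 level was 34.5, 242.1 and 291.3 (control, 30 min, 8 h) for WT and 19.9, 315.7 and 261.8 in KO cells. It was the only site with a p65 peak in all 6 lists. The SOCS1 level was 119.0 at 30 min and 105.7 at 8 h in WT cells, where it was not called in control cells, and 39.7, 203.7 and 163.4 in KO cells.

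At this Ccl3 site the p65 level at 30 min was 7.02 times the control level in WT cells (4.66 to 10.6) and 15.9 times in KO cells (10.1 to 28.2), where the 2 peaks overlapped by 55 bp. The SOCS1 level at 30 min was 5.13 times the control level in KO cells (3.50 to 7.69). For p65 the 8 h level was 1.20 times the 30 min level in WT (1.02 to 1.41) and 0.829 times in KO cells (0.718 to 0.957). The peaks behind these last ratios were 239 and 255 bp wide in WT cells and 493 and 223 bp wide in KO cells.

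Inside Ccl3, a site centred 1235 bp from its lower end (chr11:83648773-83649383) had p65 levels of 40.3, 164.8 and 200.2 in WT cells and 199.4 and 225.0 at the LPS times in KO cells. SOCS1 was called there at WT 30 min (51.8), in KO control cells (50.9) and at KO 8 h (87.5). A neighbouring site just upstream of the Ccl3 start, within the RefSeq span of Ccl4 (chr11:83649498-83649894), had p65 at 225.9 and 203.5 at the WT LPS times and at 249.3 at KO 30 min. This site overlaps the Ccl3 promoter printed above, and no control list called it. SOCS1 was there at WT 8 h (115.1) and KO 30 min (125.7). IgG had 21.5 tags in the p65 peak of WT 30 min, which was 8.75-fold over IgG.

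Further into Ccl4, 7416 bp from its lower end, SOCS1 was at 24.6 at 30 min and 73.6 at 8 h in WT cells, a ratio of 2.99 (1.86 to 4.97). Here p65 was at 91.6 at WT 8 h and 62.4 at KO 30 min. The remaining Ccl4 sites lay near its upper end and were mostly called once. A p65 site 13618 bp in was at 82.9 at WT 30 min and 95.5 at KO 30 min, and 4 sites bound by SOCS1 alone, in 1 list each, had levels of 44.1 to 57.1.

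**Figure D3:**
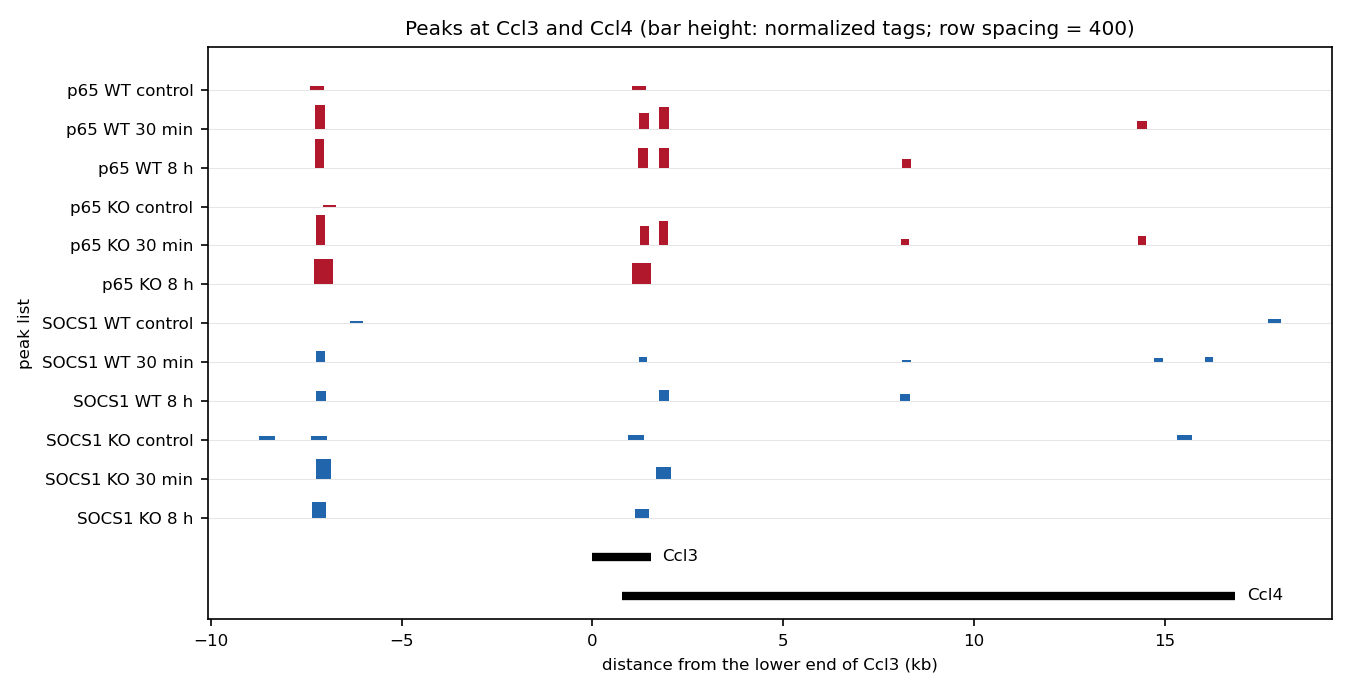
Peaks of the 12 lists around Ccl3 and Ccl4, by distance from the lower end of Ccl3 in kb; bar height is normalized tags per 10 M (row spacing 400), bar width the peak width, and black lines the gene spans. The p65 bars of the site below Ccl3 reach 242.1 to 315.7 in the LPS lists, and the wide bars of p65 KO 8 h are 493 bp across.

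Ccl5, a CCR1 ligand that attracts T cells and monocytes, had its leading site 4074 bp above its span (chr11:83534350-83534835). The p65 level was 29.9, 182.8 and 224.7 in WT cells and 28.4 and 191.5 in KO control and 30 min cells, with no call at KO 8 h. The SOCS1 level was 84.7 and 68.3 at the WT LPS times and 82.4 and 102.9 at the KO LPS times, with no call in control cells. The site was therefore called by SOCS1 and not by p65 in KO cells at 8 h. At 30 min p65 was 6.11 times its control level in WT (3.99 to 9.84) and 6.74 times in KO cells (4.48 to 10.5).

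Ccl5 had 3 more sites, each called in 1 list. They were p65 at WT 8 h, 440 bp above its span (103.4), p65 at KO 30 min, 6015 bp above (137.5), and SOCS1 at WT 8 h, 2648 bp below (24.7). The first and the last lie within 10 kb of Heatr9 as well. The peaks of 103.4 and 137.5 were 4.40-fold and 4.52-fold over their local background, near the lower limit of 4-fold that the authors set.

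Ccl9, a CCR1 ligand of mice, had 8 sites, and the SOCS1 antibody had a peak at it in all 3 WT lists and in no KO list. Its SOCS1 site inside the gene, 4582 bp from its lower end, was at 46.2, 45.7 and 48.4 in WT cells (control, 30 min, 8 h). These peaks were 343, 227 and 261 bp wide. Per bp of peak width the level was 1.49 times that in control cells at 30 min and 1.38 times at 8 h. The median ratios of all regions were 1.04 and 0.741 without the width correction, and were not computed per bp. A second site, 300 bp below the span and downstream of the gene on its minus strand, had SOCS1 at 26.0 in WT control cells and 32.8 at WT 30 min. At the same place p65 was at 69.1 and 46.3 at the WT LPS times and at 71.6 at KO 30 min. Neither site had a SOCS1 call in KO cells.

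This pattern of Ccl9 was singled out after its values were seen. Among the 6 chemokine genes with SOCS1 in all 3 WT lists, Ccl9 alone lacked it in all KO lists. Over all 4748 genes with SOCS1 in all 3 WT lists, 14 (0.295%) lacked it in all KO lists. With a window of 20 kb, KO SOCS1 peaks appeared near Ccl9: 2 in the control, 1 at 30 min and 1 at 8 h, the highest at 27.3. All of the KO SOCS1 lists have wider peaks than the WT ones, and the KO control list has more peaks (24270 against 9438).

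The p65 sites of Ccl9 also lay at different places in different lists. In KO control cells p65 was at 35.3 at the inner SOCS1 site, at 37.0 within the gene close to its start and at 18.2 at 2547 bp below it. At WT 8 h its highest level was 108.1, 914 bp above the span and upstream of the start. Another upstream site, 2596 bp above, had p65 at 68.5 at WT 8 h and 126.4 at KO 30 min and SOCS1 at 42.1 at WT 8 h. Both upstream sites lie within 10 kb of Ccl6 as well. The NF-κB match in the Ccl9 promoter was overlapped only by the p65 peak of WT control cells over the start, at 22.8.

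Ccl17 and Ccl22, the CCR4 ligands on chromosome 8, had the lowest maximum levels of the 9 genes with a site, 52.3 and 60.0 for p65 and 27.3 and 18.0 for SOCS1. The leading Ccl17 site was 7052 bp upstream of the gene (chr8:94802080-94802577). Its p65 level was 20.3 and 24.6 at the WT LPS times and 23.6 and 52.3 at the KO LPS times, with no call in control cells. Its SOCS1 level was 14.4 and 17.3 at the WT LPS times, 27.3 in KO control cells and 22.0 at KO 30 min. Apart from the 52.3, these values lie near the medians of all peaks.

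Ccl22 was bound by p65 in LPS-treated cells and by SOCS1 in the KO 8 h list alone. Its site 5654 bp upstream had p65 at 37.8 at WT 8 h, 8.14 at KO 30 min and 60.0 at KO 8 h, and SOCS1 at 18.0 at KO 8 h. Over the start of Ccl22 (74 bp in) p65 was at 11.3 and 16.5 at the WT LPS times and at 16.8 at KO 30 min. The p65 peak of KO 8 h at the upstream site overlapped neither that of KO 30 min nor that of WT 8 h, so these levels come from different places and their ratios are not read. The KO 30 min value of 8.14 rests on 15.0 tags.

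The time course of the sites called in both lists was compared as a whole. For p65 in WT cells, 3 sites (those at Ccl5, Ccl3 and inside Ccl3) were called in both control and 30 min cells. Of these 2 lists, the control list alone called 6 sites and the 30 min list alone 14. Of all control regions, 52.8% were also called at 30 min. The summed level of the 3 sites was 5.63 times higher at 30 min (4.45 to 7.13). All 3 were more than 2-fold higher, and 44.4% of the 5085 regions called in both lists were, with a median ratio of 1.85. Between 30 min and 8 h the summed level of 10 sites was about the same, at 0.978 (0.911 to 1.05), while the median ratio of all 18357 regions was 0.702. None of the 10 was more than 2-fold higher at 8 h, as were 4.27% of all regions, and 1, at Ccl2, was below 0.5, as were 22.1% of all regions. The near-equal sum hides the opposite orders at Ccl2 (0.239) and Ccl7 (1.58).

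For SOCS1 in WT cells the summed level of 8 sites at 8 h was 1.18 times that at 30 min (1.04 to 1.34). The median ratio of all 6164 regions was 0.717. The sites near Ccl7 and inside Ccl4 were more than 2-fold higher, 2 of 8, against 2.64% of all regions, and that near Ccl2 was below 0.5, 1 of 8, against 23.4%. Per bp of peak width the ratio was 1.03, since the 8 h peaks were 261 bp wide and the 30 min peaks 227 bp. The median of all regions per bp was 0.624. Relative to the median of all regions the ratio was 1.65, both per bp and without the width correction.

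**Figure D4:**
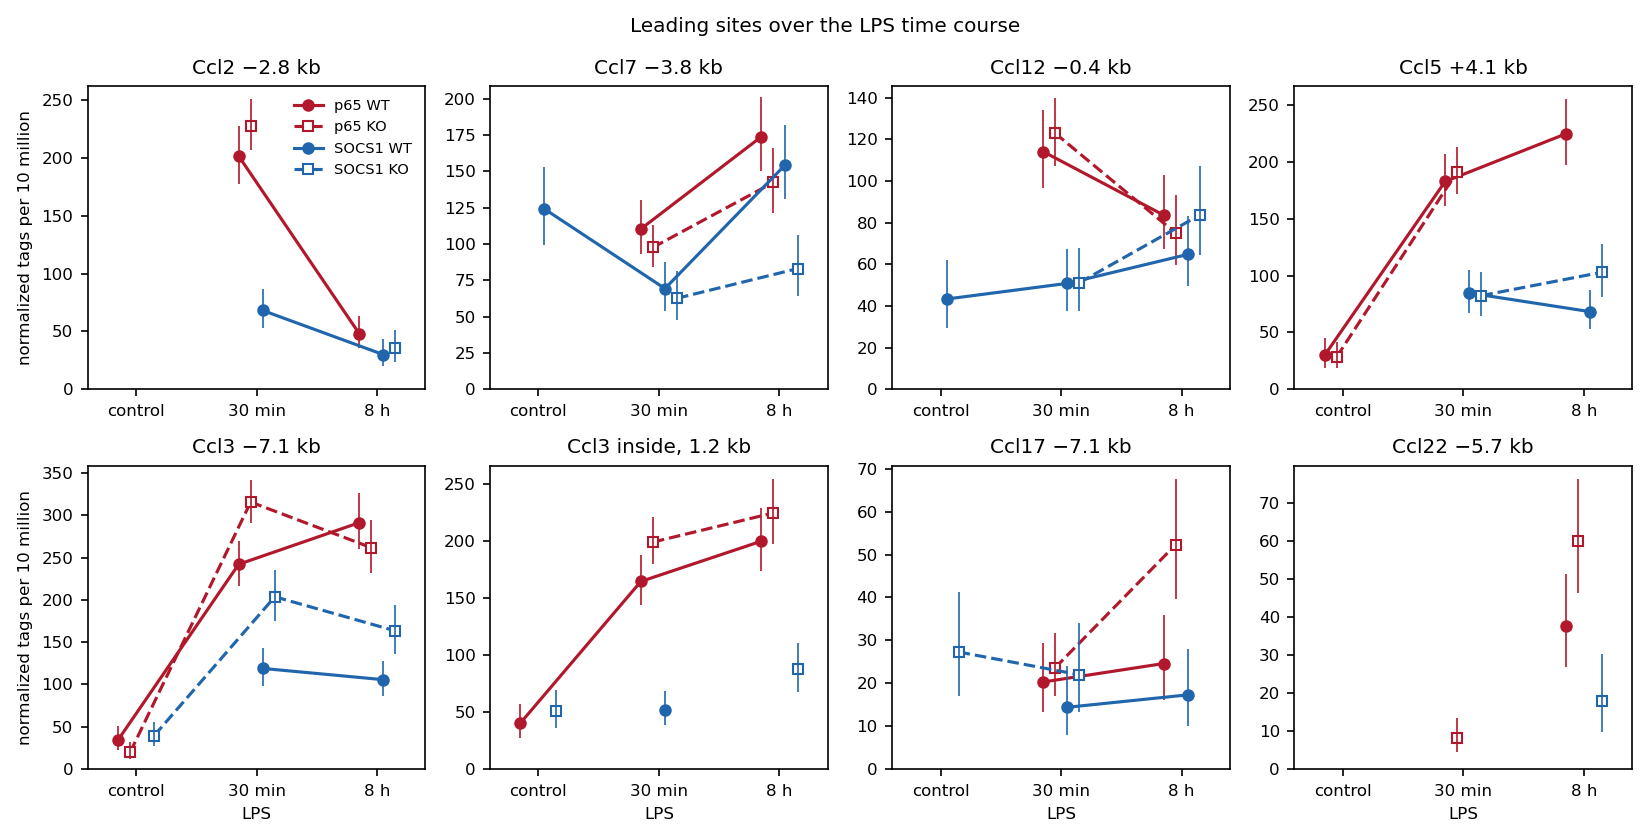
Normalized tags per 10 M at 8 leading sites in control cells and after 30 min and 8 h of LPS; red p65, blue SOCS1, filled circles WT, open squares KO, with 95% counting intervals and 1 library per point, no point where the site was not called, and lines only between peaks that overlap each other. Ccl2 has its higher WT levels at 30 min (p65 201.9 against 48.2 at 8 h), and Ccl7 its higher levels at 8 h (173.8 against 110.3).

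The genotypes gave similar p65 levels at 30 min. Over 13 sites called in both, the KO level was 1.13 times the WT level (1.07 to 1.19), and single sites ranged from 0.885 (near Ccl7, 0.708 to 1.11) to 1.49 (start of Ccl22, 0.782 to 2.98). No site was more than 2-fold higher in KO cells, and 1.19% of all regions were. At the leading Ccl3 site the ratio was 1.30 (1.13 to 1.50). Both lists are the deepest of the series for p65, with 13.3 and 18.4 M tags.

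At 8 h the KO p65 list had fewer chemokine sites than the WT list, 7 against 19, and fewer peaks in all, 25811 against 31007. Of the 19 WT sites 6 were called in KO cells, while 51.1% of all WT 8 h regions were. Over the 6 sites called in both, the KO level was 1.01 times the WT level (0.916 to 1.11), or 0.978 (0.887 to 1.08) without the upstream Ccl22 site, where the peaks did not overlap each other, whereas the median ratio of all 15571 regions was 1.65. Relative to that median the sites were at 0.611. Per bp of peak width the sites were at 0.488 and the median of all regions at 0.798, which is again 0.611 relative to the median. The peaks were 493 bp wide in KO and 239 bp wide in WT cells. The site upstream of Ccl17 was the 1 of 6 more than 2-fold higher in KO cells, at 2.13 (1.33 to 3.55), against 31.6% of all regions, and per bp it was at 1.03. In that KO list 36.9% of all peaks were under 6-fold over local background, and the part of peak width in the lost calls was not tested.

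For SOCS1 the KO level was 1.25 times the WT level at 30 min over 5 sites (1.07 to 1.45) and 1.11 times at 8 h over 5 sites (0.957 to 1.28). The median ratios of all regions were 1.50 and 1.55. At 8 h none of the 5 was more than 2-fold higher, and 27.7% of all regions were. The KO and WT peaks at the Ccl2 site, 1 of these 5, overlapped by only 27 bp. The site near Ccl7 had the lowest ratio, 0.537 (0.398 to 0.729), and the Ccl3 site the highest, 1.55 (1.18 to 2.02), which divided by the median of all regions was 0.995. The SOCS1 peaks were 375 to 397 bp wide in the KO LPS lists and 227 to 261 bp wide in the WT ones.

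**Figure D5:**
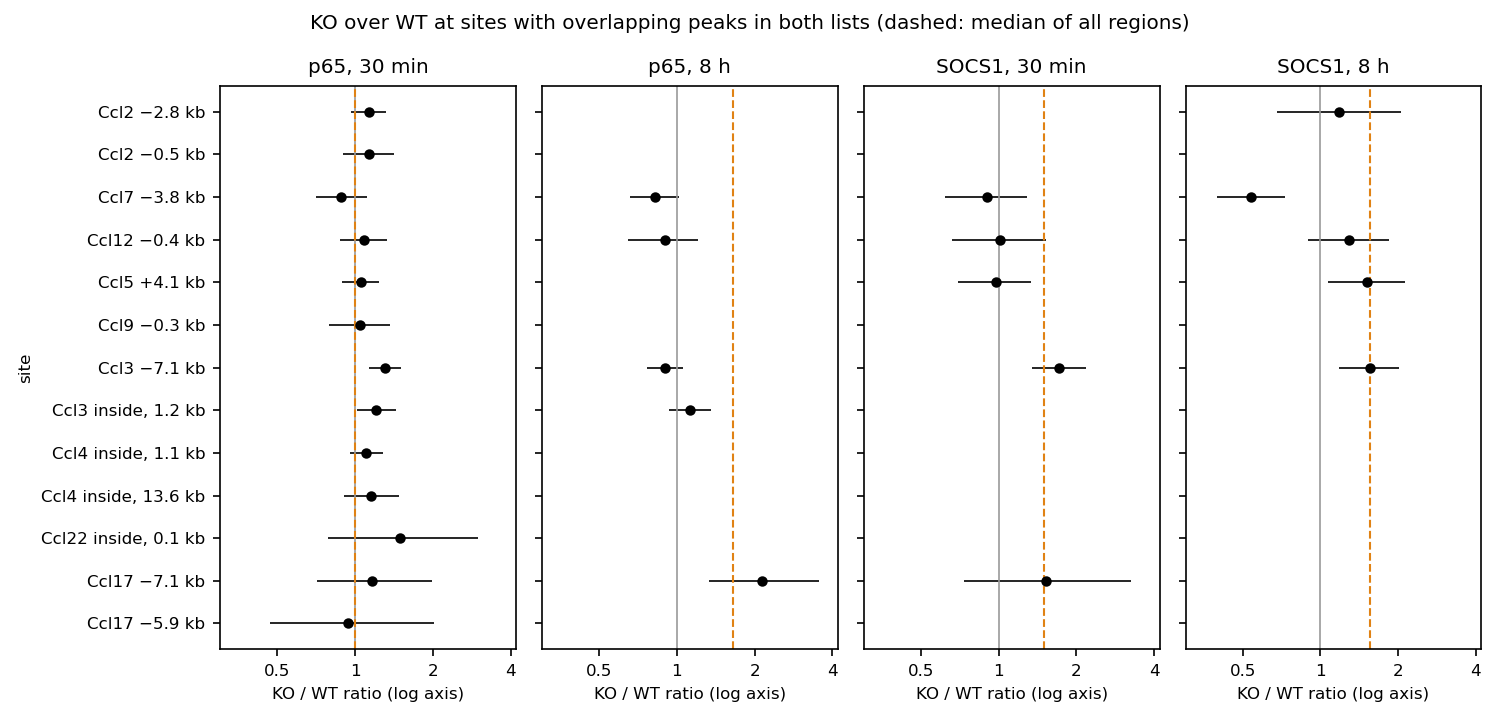
Ratio of KO to WT level (log axis) at each site with overlapping peaks in both lists, for p65 and SOCS1 at 30 min and 8 h, with 95% counting intervals; the grey line is 1 and the dashed orange line the median of all regions. For p65 at 8 h the median of all regions is 1.65 and only the Ccl17 site (2.13) lies above it; for SOCS1 at 8 h the Ccl7 site lies lowest, at 0.537.

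Sites shared by both antibodies were few in control cells and more frequent after LPS. A p65 peak overlapped a SOCS1 peak of the same genotype and treatment at 2 of 10 genes in untreated WT cells (Ccl2 and Ccl7, through 1 site inside Ccl2), where 11.8% of all genes had such a site. At 30 min and at 8 h in WT cells it did at 8 of 10 genes, all but Ccl22 and Ccl20, against 35.2% and 30.8% of all genes. In KO cells it did at 2 genes in control cells (Ccl3 and Ccl4, through 1 site), at 7 at 30 min and at 6 at 8 h, against 19.1%, 40.4% and 32.1% of all genes. Lists of the same genotype and treatment were called against the same IgG library. Ccl9 was the gene shared at WT 30 min and not at KO 30 min. At KO 8 h Ccl5, Ccl9 and Ccl17 had no shared site, and that of Ccl22 was an overlap of 2 bp. The KO 8 h count was 5 with an overlap of at least 50% and 8 with a window of 20 kb. Shares of all genes were not counted with these settings.

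Counted by peaks, 1 of 9 p65 peaks at the chemokine genes overlapped SOCS1 in WT control cells (11.1%, against 24.9% of all p65 peaks) and 1 of 6 in KO control cells (16.7%, against 36.9%). After LPS, 8 of 17 p65 peaks at the chemokine genes overlapped SOCS1 at WT 30 min (47.1%, against 28.9% of all p65 peaks) and 10 of 19 at WT 8 h (52.6%, against 29.3%). As a share of the SOCS1 peaks these were 8 of 13 (61.5%, against 53.1%) and 10 of 15 (66.7%, against 66.2%). In KO cells all 7 SOCS1 peaks at 30 min overlapped p65, against 60.1% of all SOCS1 peaks, and 7 of 19 p65 peaks overlapped SOCS1 (36.8%, against 27.9% of all). At 8 h the shared peaks were 5 of 7 for either antibody (71.4%, against 34.0% of all p65 and 56.2% of all SOCS1 peaks). The centres of the shared peaks lay a median of 17.5 bp apart at WT 30 min and 126 bp apart at KO 8 h.

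The most constant sharing was at few sites. The sites near Ccl7, upstream of Ccl12 and below Ccl3 were called in all 8 LPS lists. The site above Ccl5 and the leading site upstream of Ccl17 were each called in 7 of them. Beyond those, sharing differed from list to list. How many of all regions were called in 7 or 8 LPS lists was not counted. Among peaks at least 8-fold over local background the shared genes were 5 of 10 at both WT LPS times, 3 at KO 30 min, 2 at KO 8 h and 0 in control cells of both genotypes. The share of all genes at this limit was not counted, and the shares given above are for peaks without it.

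The peaks at these genes stood less far above their surroundings than peaks in general. The fold over local background, as the authors give it, had a median of 6.46 over the 134 peaks (4.03 to 21.33), against 8.71 over all peaks, and 60 of them (44.8%) were under 6-fold, against 24.1% of all. All 6 p65 peaks and all 7 SOCS1 peaks of the genes in KO control cells had IgG at its floor of 0.5 tags, as did 91.4% and 88.0% of all peaks in those lists. The highest local fold, 21.33, was that of p65 at the Ccl3 site at KO 30 min.

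The window of 10 kb had a few peaks at its edge. For Ccl7 the p65 peak of WT control cells lay just inside, at 9862 bp with a level of 27.3, and the SOCS1 peak of the same cells just outside, at 10007 bp with 31.0. For Ccl12 the farthest peaks inside were at 9250 and 9298 bp, with levels of 17.1 and 27.9. For Ccl4 a group of peaks at 10831 to 10994 bp lay outside, with levels of 18.9 to 37.3.

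Other genes of the family were counted by the same rule. Of 8 further CC chemokine genes, 3, 5 and 7 had a p65 peak (control, 30 min, 8 h) in WT cells, and 2, 7 and 6 in KO cells. Of all genes, 32.7%, 61.9% and 55.9% had one in WT and 35.8%, 65.4% and 55.5% in KO cells. SOCS1 had a peak at 3, 5 and 4 of the 8 genes in WT and at 1, 3 and 2 in KO cells. For SOCS1 the shares of all genes were 32.4%, 47.7% and 38.6% in WT and 55.3%, 51.0% and 44.6% in KO cells. Ccl6 and Ccl11, neighbours of Ccl9 and Ccl7, and Ccl8, next to Ccl12, share peaks with those genes.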

How the data were processed

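CUT&RUN libraries of mouse BMDM were analysed as 12 deposited peak lists, 1 for each antibody, genotype and treatment. Among 20 samples in all, the 6 IgG libraries served only as background in the authors' calls, and 2 internal controls were not used here. Per the submitters' processing notes the tools were cutadapt, Bowtie2 2.4.1 and HOMER 4.11, with mm10. Per the file headers, findPeaks ran in its factor mode against IgG of the same genotype and treatment with an FDR of 0.001, 4-fold over IgG and over the local 10 kb, a Poisson p of 0.0001 and a clonal limit of 2.

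The signal used is the authors' normalized tag count, per 10000000 tags. The deposited findPeaks score is not scaled to depth. The ratio is the authors' fold over IgG, over local background or over clonal expectation. The deposited p-value (Poisson, not adjusted) and the deposited focus fraction were not recomputed. IgG tags in a peak are the authors' signal too. Per the file headers they were scaled to the antibody library in the SOCS1 lists of WT control, KO 30 min and KO 8 h cells, and in the other lists the antibody library was scaled instead.

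Genes are the 21887 protein-coding genes of the RefSeq GRCm38.p6 table with unique symbols on the named chromosomes, and its spans carry no strand. Sites are peaks of the 12 lists merged where they overlapped by at least 1 bp. The level of a site is its highest peak in a list. Level intervals are exact Poisson and ratio intervals exact conditional binomial (95%), computed with Python 3.11.15 and scipy 1.17.1 and checked on simulated data. All 10 genes are named, and sites given in full include the highest p65 and the highest SOCS1 site of each gene. A ratio past 2 is the call used for levels. Genes and lists were chosen with earlier results of these data known. An E. coli spike-in named in the labels was not used here. Other windows, folds, scores, overlaps and scalings were tried as alternatives, and tags per bp and sums over directly overlapping peaks were added after the data were seen.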

Additional observations from a re-analysis of the deposited data

Results flagged for a closer look

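At the site 7056 bp below Ccl3, p65 went opposite ways between 30 min and 8 h in the 2 genotypes: the 8 h level was 1.20 times the 30 min level in WT cells and 0.829 times in KO cells. The counting intervals were 1.02 to 1.41 and 0.718 to 0.957. The difference between the genotypes was not tested, since each value comes from 1 library. The KO 8 h peak was 493 bp wide and the other 3 were 223 to 255 bp wide.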

How the results depend on the processing

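No paired analysis was possible because each group has 1 library and the labels give no replicate numbers. Depth limits the calls: a site needed a level of 6.51 to 10.3, by list. With peaks at least 8-fold over local background, genes with a p65 peak were 3 in WT control, 1 in KO control and 3 in KO 8 h cells, and with a SOCS1 peak 1, 3 and 3 in KO cells (control, 30 min, 8 h). Genes with a shared site were then 0, 5 and 5 in WT and 0, 3 and 2 in KO cells. Sites were 2, 7 and 9 (p65, WT), 1, 8 and 2 (p65, KO), 3, 6 and 6 (SOCS1, WT), 1, 3 and 2 (SOCS1, KO) and 16 in all. Shares of all genes or regions at the 8-fold limit were not counted. A 5 kb window gave 3 genes for p65 in KO control cells and shared sites at 1 gene in WT control and 0 in KO control cells. The last was also 0 with a score of at least 12 or an overlap of at least 50%. Shares of all genes were not counted for these windows, scores or overlaps either. The other counts of genes with a peak (41 of 48) or a shared site (26 of 36) stayed within 1.5 times.

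Summed ratios divided by the median of all regions were 3.05 (p65, WT, 30 min to control), 1.39 (p65, WT, 8 h to 30 min), 0.611 (p65, 8 h, KO to WT), 1.65 (SOCS1, WT, 8 h to 30 min) and 0.712 (SOCS1, 8 h, KO to WT). By score they were 0.845 (p65, WT, 8 h to 30 min), 1.24 and 1.19 (p65, KO to WT, 30 min and 8 h) and 1.44 (SOCS1, WT, 8 h to 30 min). Per bp they were 7.93 (p65, WT, 30 min to control), 1.29 and 0.488 (p65, KO to WT, 30 min and 8 h), 1.03 (SOCS1, WT, 8 h to 30 min) and 0.770 (SOCS1, 8 h, KO to WT). In the same order, the medians of all regions per bp were 2.60, 1.15, 0.798, 0.624 and 1.08. Divided by these medians, the per bp ratios were 3.05, 1.13, 0.611, 1.65 and 0.712. Of single-site ratios whose counting interval excluded 1, these crossed 1 when divided by the median of all regions: Ccl12 −0.4 kb (p65, WT, 8 h to 30 min, 1.04) and, KO to WT at 8 h, Ccl22 −5.7 kb (p65, 0.964, from peaks that do not overlap), Ccl5 +4.1 kb (SOCS1, 0.969) and Ccl3 −7.1 kb (SOCS1, 0.995). Per bp, Ccl7 −3.8 kb (p65, KO, 8 h to 30 min, 0.659) and Ccl22 −5.7 kb (p65, 8 h, KO to WT, 0.770) did. The alternatives' own scaling, peak width or stricter limit sets these shifts, and no other cause was tested.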
